A study of Saccharomyces cerevisiae with 6 samples.

Results

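The arginine tRNAs of budding yeast were represented by 5 of the 70 tRNA sequences counted by tRNA-HySeq, namely all sequences whose identifier names arginine. They were TRNA-ARG-TCT-1-1 with the anticodon UCU, TRNA-ARG-ACG-1-1 and TRNA-ARG-ACG-2-1 with the anticodon ACG, TRNA-ARG-CCT-1-1 with the anticodon CCU and TRNA-ARG-CCG-1-1 with the anticodon CCG. tRNA-HySeq sequences the short fragments that mild alkaline hydrolysis cuts from size-selected tRNA, here of 19 to 35 nt, and the deposited value is the number of reads on each tRNA sequence. The counts came from paf1Δ cells (strain DAS516), rtf1Δ cells (strain DAS549) and WT cells (strain DAS217), with 2 libraries per genotype and 6 in all. PAF1 or RTF1 was replaced by a HIS3 marker in the deletion strains, according to the strain list of the study. DAS217 is a label of the WT samples only and is not found in that list, so it is not known whether the genotypes share every other allele. All cells were in log phase in YEP with 2% glucose at 30 °C, at an A600 of 0.6 to 0.8, with no further treatment. Each genotype is 1 strain, and nothing in the labels says whether the 2 libraries of a genotype came from separate cultures, so the p-values measure only the spread between these libraries. The comparisons address how the tRNA pool differs when a subunit of the Paf1 complex is missing. The transcripts of PAF1 and RTF1 were not measured, so the deletions cannot be seen in these counts.

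Arginine is read from 6 codons in the standard code. The UCU tRNA reads AGA, the codon that yeast prefers in highly expressed genes, and the CCU tRNA reads AGG. The ACG tRNA carries inosine at its wobble position in the mature molecule and reads CGU, CGC and CGA, while the CCG tRNA reads CGG. tRNA genes are transcribed by RNA polymerase III from promoter elements within the gene, box A and box B, which are bound by TFIIIC. Paf1 and Rtf1 are subunits of the Paf1 complex, which is known for its role in elongation by RNA polymerase II and in histone modification.

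The R64 reference annotation (RefSeq) held 275 nuclear tRNA genes, of which 19 were for arginine, on 9 chromosomes and with no intron. They had 5 distinct sequences, and the UCU, CCU and CCG sequences were matched to the counted sequences by their anticodon. Both ACG sequences are 73 nt long, and the files hold no bases, so it is not known which of them is TRNA-ARG-ACG-1-1. The 5 sequences are shown because the near-identical ACG pair shares identical stretches of 19 nt, while the other types share none with any tRNA. Capitals mark the anticodon in DNA letters.
tRNA-Arg(UCU), 11 genes: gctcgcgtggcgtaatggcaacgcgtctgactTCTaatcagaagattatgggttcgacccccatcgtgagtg
tRNA-Arg(ACG), sequence of 5 genes: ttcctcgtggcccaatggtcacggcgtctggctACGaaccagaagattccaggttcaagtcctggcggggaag
tRNA-Arg(ACG), sequence of 1 gene: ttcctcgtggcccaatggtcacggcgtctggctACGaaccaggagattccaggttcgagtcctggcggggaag
tRNA-Arg(CCU), 1 gene: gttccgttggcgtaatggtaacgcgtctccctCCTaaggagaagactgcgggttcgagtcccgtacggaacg
tRNA-Arg(CCG), 1 gene: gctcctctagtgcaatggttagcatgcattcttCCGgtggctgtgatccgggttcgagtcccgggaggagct

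The ACG sequences differed at 2 positions counted from the 5′ end of the gene, A43G and A57G, with the base of the sequence of 5 genes first. Of the 55 windows of 19 nt in either ACG sequence, 24 occurred in the other one too, and of the 39 windows of 35 nt, 8 did. A fragment in such a window can come from either sequence, so the split of reads between TRNA-ARG-ACG-1-1 and TRNA-ARG-ACG-2-1 is uncertain and their sum is given beside them. No window of 19 nt of any arginine sequence occurred in a tRNA for another amino acid, and the UCU, CCU and CCG sequences shared none among themselves. The UCU and CCU sequences were the most alike of the different types, with 55 identical positions in an alignment of 74. The box B letters GGTTCGANNCC, searched on both strands, occurred in 4 of the 5 arginine sequences and in 26 of all 70 distinct nuclear tRNA gene sequences (37.1%). The ACG sequence of 5 genes lacks these letters because A57G falls within them.

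In R64 the single CCG gene, TRR4, lies on chromosome XII at 818609 to 818680 on the forward strand, and it is known to be essential. The single CCU gene, HSX1, lies on chromosome X at 538555 to 538626 on the forward strand. The ACG sequence with 1 gene, YNCJ0008W, lies on chromosome X at 233939 to 234011. The other ACG genes are YNCD0013C (chromosome IV, 619969 to 620041), YNCE0028C (chromosome V, 492352 to 492424), YNCK0017W (chromosome XI, 490968 to 491040), YNCL0007W (chromosome XII, 374355 to 374427) and YNCO0012C (chromosome XV, 340299 to 340371). The 11 UCU genes lie on 7 chromosomes, and 4 of them are followed after 10 nt by a tRNA-Asp gene on the same strand, an arrangement known in yeast to be transcribed as a joint precursor. These 4 are YNCB0015W (chromosome II, 405878 to 405949), YNCD0011W (chromosome IV, 568882 to 568953), YNCJ0011W (chromosome X, 355374 to 355445) and YNCJ0014C (chromosome X, 374506 to 374577). The other UCU genes are YNCE0010W on chromosome V (138666 to 138737), 3 genes on chromosome VII, YNCK0006C on chromosome XI (162487 to 162558) and 2 genes on chromosome XIII. On chromosome VII these are YNCG0017W (405470 to 405541), YNCG0032W (736340 to 736411) and YNCG0038C (828723 to 828794), and on chromosome XIII they are YNCM0004C (131825 to 131896) and YNCM0033C (747892 to 747963). YNCG0038C overlaps the annotated protein-coding gene YGR164W, and it was the only arginine tRNA gene to overlap one. The UCU genes share 1 sequence, and so do the ACG genes other than YNCJ0008W. Counts on these sequences sum over their genes and say nothing of a single one, while CCU and CCG have a single gene each.

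Between 519302 and 8259323 reads per library aligned to tRNAs. The paf1Δ libraries stood apart before any tRNA was compared. Of their reads, 87.4 to 87.9% aligned to tRNAs, against 5.64 to 6.08% in rtf1Δ and 6.43 to 6.76% in WT libraries. The reference lengths listed with the counts were also 3 nt longer for all 70 sequences in the paf1Δ libraries. The paf1 deletion and the different processing of its libraries cannot be told apart, which holds for every comparison with paf1Δ below. The 2 libraries of a genotype differed by more than counting error. A chi-square test of their counts over the 70 sequences gave between 162 and 23963 for every degree of freedom. It cannot tell whether the libraries were separate preparations.

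The UCU tRNA held a far larger part of the aligned reads in paf1Δ cells than in the other genotypes. Its share was 19.4% (95% Wilson interval 19.35 to 19.4%) and 20.7% (20.64 to 20.7%) in paf1Δ replicates 1 and 2, 1.55% (1.53 to 1.58%) and 1.03% (1.01 to 1.06%) in rtf1Δ, and 1.18% (1.15 to 1.21%) and 0.842% (0.827 to 0.857%) in WT. These intervals cover counting error only, and the spread between replicates was wider than they are. TRNA-ARG-TCT-1-1 had the highest count of the 70 sequences in both paf1Δ libraries, whereas it was at position 14 and 19 in rtf1Δ and 28 and 24 in WT libraries. Both paf1Δ libraries lay far above the other 4, and the rtf1Δ and WT libraries overlapped.

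The ACG tRNAs were the next most counted arginine type. TRNA-ARG-ACG-1-1 had 1.81 and 0.801% of the aligned reads in paf1Δ, 0.618 and 0.495% in rtf1Δ, and 0.478 and 0.380% in WT libraries. The 3 genotypes did not overlap for this sequence, in the order paf1Δ, rtf1Δ, WT. The paf1Δ replicates nevertheless differed from each other by more than the rtf1Δ and WT libraries did. Of all 70 sequences, 24.3% had both paf1Δ libraries above both WT libraries. For rtf1Δ above WT this was 14.3%, and for paf1Δ above rtf1Δ 31.4%. TRNA-ARG-ACG-2-1 was the least counted arginine sequence in every library, with 0.279 and 0.113% in paf1Δ, 0.182 and 0.116% in rtf1Δ, and 0.187 and 0.137% in WT libraries, and all genotypes overlapped. Summed, both ACG sequences had 2.09 and 0.914% in paf1Δ, 0.800 and 0.611% in rtf1Δ, and 0.665 and 0.517% in WT libraries.

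The CCU and CCG tRNAs, with a single gene each, had at most 0.577% of the aligned reads in any library. TRNA-ARG-CCT-1-1 had 0.479 and 0.287% of the aligned reads in paf1Δ, 0.315 and 0.282% in rtf1Δ, and 0.293 and 0.230% in WT libraries, and the genotypes overlapped. TRNA-ARG-CCG-1-1 had 0.402 and 0.577% in paf1Δ, 0.287 and 0.253% in rtf1Δ, and 0.417 and 0.222% in WT libraries. For CCG both paf1Δ libraries lay above both rtf1Δ libraries, and the WT libraries overlapped with either deletion strain. Over all 5 sequences, arginine had 22.3 and 22.4% in paf1Δ, 2.96 and 2.18% in rtf1Δ, and 2.55 and 1.81% in WT libraries. Among 22 amino acid classes, with initiator methionine and undetermined tRNAs as classes of their own, arginine ranked 1 and 2 in paf1Δ, 10 and 14 in rtf1Δ, and 14 and 15 in WT libraries.

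**Figure D1:**
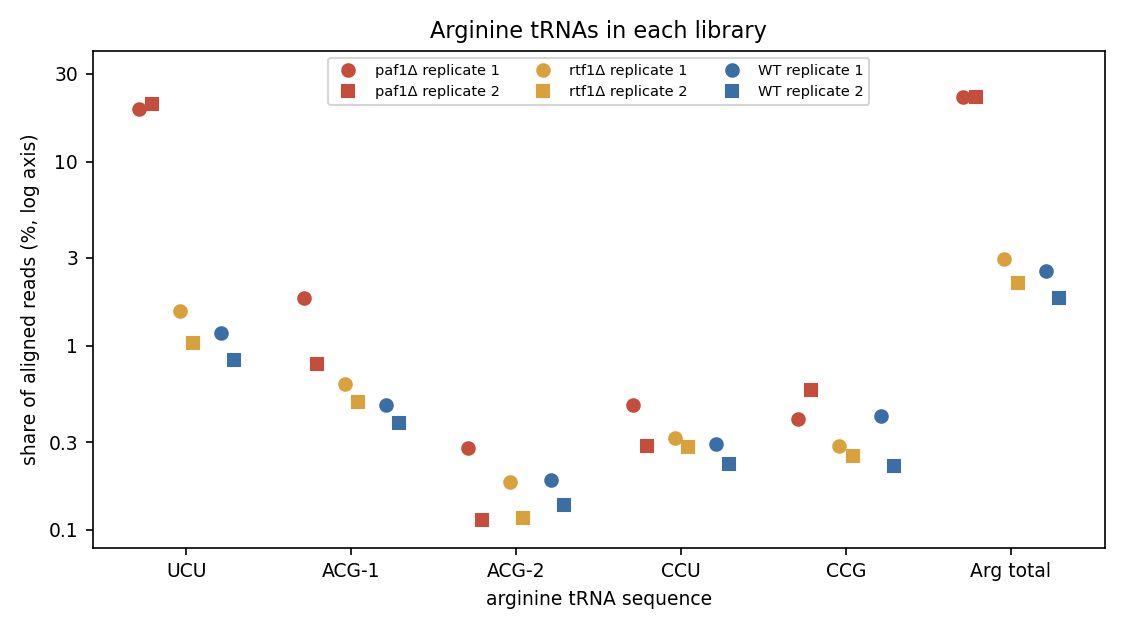
Share of aligned reads (%, log axis) of each arginine tRNA sequence and of their sum in the 6 libraries, with circles for replicate 1 and squares for replicate 2 of paf1Δ, rtf1Δ and WT. For UCU the paf1Δ libraries lie at 19.4 and 20.7% and the other 4 between 0.842 and 1.55%, while the genotypes overlap for ACG-2 and CCU.

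In paf1Δ cells the UCU tRNA and TRNA-ARG-ACG-1-1 were higher than in WT, and the other arginine tRNAs did not pass the test. TRNA-ARG-TCT-1-1 averaged 20.02 ± 0.91% of the aligned reads in paf1Δ and 1.01 ± 0.24% in WT (SD, n = 2 each), a 21.6-fold higher level by edgeR's quasi-likelihood test after TMM scaling (log2 fold change 4.43, SE 0.77, Benjamini-Hochberg adjusted p = 0.0113 over the 70 sequences). Its fold change was the second highest of all sequences tested. The study also probed mature tRNAs by northern blot, with a probe for this tRNA among them. For the tRNAs it tested, it reported a small but significant increase in both paf1Δ and rtf1Δ cells. Those levels were normalized to U4 RNA, not to the aligned tRNA reads. From its tRNA-HySeq counts the study reported both increases and decreases in paf1Δ, found them statistically insignificant, and saw no changes in rtf1Δ. TRNA-ARG-ACG-1-1 averaged 1.31 ± 0.71% in paf1Δ and 0.429 ± 0.069% in WT (SD, n = 2 each), a log2 fold change of 1.54 (SE 0.43, edgeR adjusted p = 0.0498). So 2 of the 5 arginine sequences were called higher and 0 lower, beside 8.57% of all sequences called higher, and in shares of aligned reads the same 2 sequences had both paf1Δ libraries above both WT libraries, beside 24.3% of all sequences.

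The log2 fold changes of the other arginine tRNAs in paf1Δ over WT were 0.83 for CCG (SE 0.55, edgeR adjusted p = 0.294), 0.55 for CCU (SE 0.40, adjusted p = 0.321) and 0.21 for TRNA-ARG-ACG-2-1 (SE 0.36, adjusted p = 0.718). CCU did pass with DESeq2 (log2 fold change 0.68, adjusted p = 0.0154), which called 3 of the 5 higher beside 21.4% of all sequences. The CCG value rested on the paf1Δ libraries, with 1.42 without paf1Δ replicate 1 and 0.018 without paf1Δ replicate 2. All 5 fold changes were above 0, with a median of 0.83, where the median of all 70 sequences was -0.0066. Summed by amino acid, arginine was 13.7-fold higher in paf1Δ than in WT (log2 fold change 3.78, SE 0.40, edgeR adjusted p = 0.00107 over 22 classes), the highest fold change of the 22 classes, of which 13.6% were called higher. This call was lost without paf1Δ replicate 1 (adjusted p = 0.052) and without WT replicate 2 (adjusted p = 0.0611), at log2 fold changes of 3.87 and 3.46. With UCU taken out of the sum, a setting chosen after seeing the data, the remaining arginine tRNAs were at a log2 fold change of 1.37 (SE 0.38, edgeR adjusted p = 0.0237), and summed as a type of its own, ACG was at 1.51 (SE 0.52, edgeR adjusted p = 0.0856 over 43 anticodon types).

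The calls of UCU and TRNA-ARG-ACG-1-1 were lost when either WT library was left out. Without WT replicate 1 the UCU fold change was 4.58 on the log2 scale with an edgeR adjusted p of 0.207, and without WT replicate 2 it was 4.43 with an adjusted p of 0.368, so the size stayed and the call did not. Without WT replicate 2 the loss was general, since edgeR called no sequence at all. Without WT replicate 1, however, some sequences for other amino acids were still called. The call of TRNA-ARG-ACG-1-1 was lost under 7 of 12 alternatives, with adjusted p-values from 1.97e-05 to 0.266 over all of them.

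**Figure D2:**
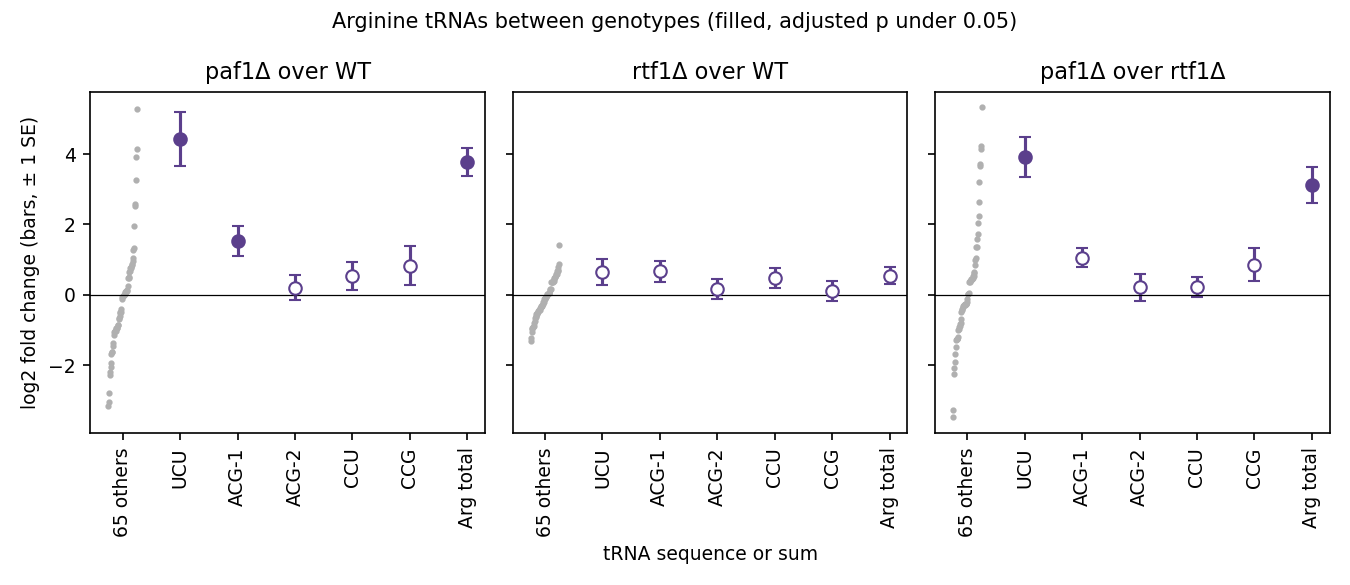
Log2 fold changes from edgeR (points, bars ± 1 SE) of the arginine tRNAs and of their sum in paf1Δ over WT, rtf1Δ over WT and paf1Δ over rtf1Δ, with the other tRNA sequences in grey, ordered by value. Filled points have an adjusted p under 0.05, which UCU and the arginine total reach in both comparisons with paf1Δ, TRNA-ARG-ACG-1-1 in paf1Δ over WT only, and none in rtf1Δ over WT.

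In rtf1Δ cells no arginine tRNA passed the test against WT. TRNA-ARG-TCT-1-1 averaged 1.29 ± 0.37% in rtf1Δ and 1.01 ± 0.24% in WT (SD, n = 2 each), with a log2 fold change of 0.66 (SE 0.36, edgeR adjusted p = 0.217). TRNA-ARG-ACG-1-1 averaged 0.557 ± 0.087% in rtf1Δ and 0.429 ± 0.069% in WT (SD, n = 2 each), with a log2 fold change of 0.67 (SE 0.31, edgeR adjusted p = 0.161). It was the 1 arginine sequence with both rtf1Δ libraries above both WT libraries in share of aligned reads, beside 14.3% of all sequences. The CCU, ACG-2 and CCG sequences were at log2 fold changes of 0.49, 0.18 and 0.10, each below 2 times its SE, and ACG-2 and CCG turned below 0 when libraries were scaled by total counts.

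The 5 sequences had a median log2 fold change of 0.49 in rtf1Δ over WT, where all 70 had a median of -0.063. By edgeR 0 of the 5 arginine sequences were called in either direction, where 0 of all 70 were called higher and 4 lower. Of the 5, 1 had an unadjusted p under 0.05 by edgeR, as did 25.7% of all sequences. DESeq2 called 0 of the 5, beside 2.86% of all sequences, and gave 2 of the 5 an unadjusted p under 0.05, beside 27.1% of all. The arginine total was at a log2 fold change of 0.55 (SE 0.24, edgeR adjusted p = 0.183), and 4.55% of the amino acid classes were called higher. Without WT replicate 2, edgeR called 2 arginine sequences higher in rtf1Δ, UCU at 0.67 and TRNA-ARG-ACG-1-1 at 0.76 on the log2 scale, each with an adjusted p of 0.019, in a fit that called 21.4% of all sequences higher. WT replicate 1 alone comes from another set by the names of the libraries, and without it, within a single set, edgeR called 0 of the 5, beside 5.71% of all sequences called higher, with UCU at 0.67 (SE 0.24, adjusted p = 0.0662), TRNA-ARG-ACG-1-1 at 0.60 (SE 0.24, adjusted p = 0.099) and the arginine total at 0.66 (SE 0.17, adjusted p = 0.123).

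Set against each other, the deletion strains differed in the UCU tRNA. TRNA-ARG-TCT-1-1 was 15.1-fold higher in paf1Δ than in rtf1Δ (log2 fold change 3.92, SE 0.57, edgeR adjusted p = 0.0149), which is also the test of whether both deletions changed it alike relative to WT. TRNA-ARG-ACG-1-1 was at a log2 fold change of 1.05 (SE 0.27) and fell just outside the threshold (edgeR adjusted p = 0.051). Over the alternatives that kept both libraries of each genotype, by edgeR or DESeq2, its adjusted p was between 0.000534 and 0.0567. With 1 library left out its log2 fold change was between 0.78 and 1.30. CCG was at 0.86 (SE 0.47, adjusted p = 0.244). It was at 1.35 without paf1Δ replicate 1 and at 0.17 without paf1Δ replicate 2. CCU was at 0.23 (SE 0.28, edgeR adjusted p = 0.512) and TRNA-ARG-ACG-2-1 at 0.21 (SE 0.39, adjusted p = 0.653). Thus 1 of the 5 was called higher, where 14.3% of all sequences were, and 3 of the 5 had both paf1Δ libraries above both rtf1Δ libraries in share of aligned reads, where 31.4% of all sequences did. The median of the 5 log2 fold changes was 0.86, against 0.051 for all 70 sequences.

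The arginine total was 8.65-fold higher in paf1Δ than in rtf1Δ (log2 fold change 3.11, SE 0.51, edgeR adjusted p = 0.0117), where 31.8% of the amino acid classes were called higher. The call was lost without rtf1Δ replicate 1 (log2 fold change 3.44, adjusted p = 0.134) and without rtf1Δ replicate 2 (3.11, adjusted p = 0.154). Leaving out either rtf1Δ library kept the UCU fold change at 4.19 and 3.71 on the log2 scale but raised its edgeR adjusted p to 0.221 and 0.418. The comparisons of paf1Δ with WT and with rtf1Δ use the same paf1Δ libraries, so neither is independent evidence for the other.

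The arginine tRNAs were then compared within each library, which needs no scaling between libraries but does not remove the difference in processing. UCU took 86.7 and 92.1% of the arginine reads in paf1Δ, 52.6 and 47.4% in rtf1Δ, and 46.2 and 46.5% in WT libraries. The ACG sum took 9.34 and 4.07% in paf1Δ, 27.1 and 28.0% in rtf1Δ, and 26.0 and 28.6% in WT libraries. CCU took 2.14 and 1.28% in paf1Δ, 10.7 and 12.9% in rtf1Δ, and 11.5 and 12.7% in WT libraries, and CCG took 1.80 and 2.57% in paf1Δ, 9.70 and 11.6% in rtf1Δ, and 16.3 and 12.3% in WT libraries. The lower arginine shares of ACG, CCU and CCG in paf1Δ therefore stand beside shares of all aligned reads that were not lower on average.

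**Figure D3:**
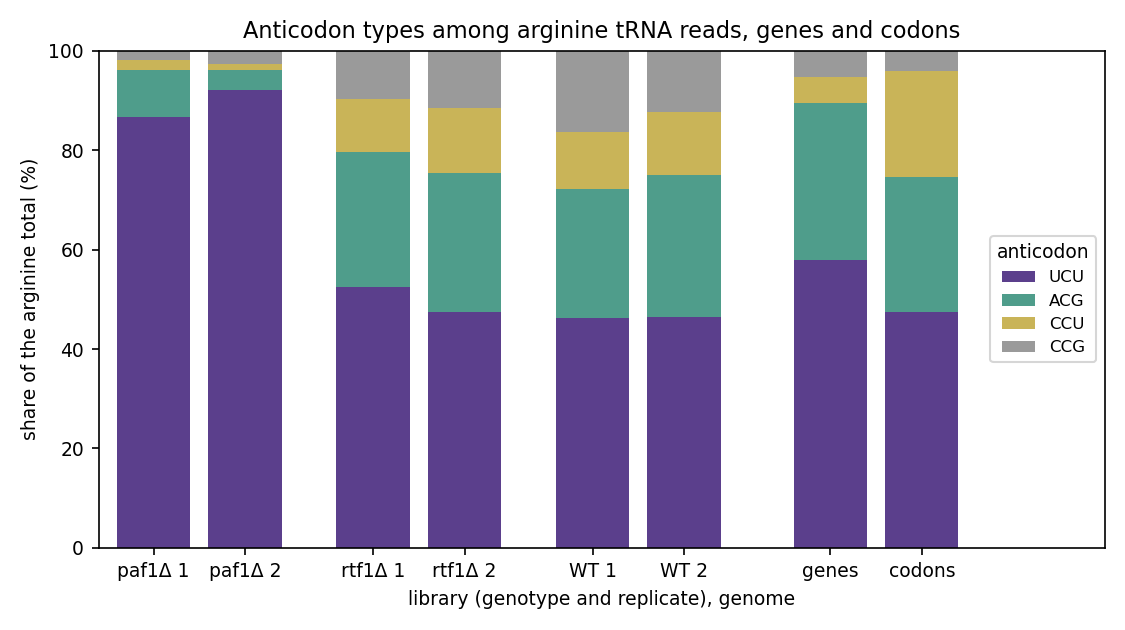
Share of each anticodon type among the arginine reads of each library, and among the arginine tRNA genes and arginine codons of the R64 annotation. UCU fills 86.7 and 92.1% of the paf1Δ bars and between 46.2 and 52.6% of the rtf1Δ and WT bars, beside 57.9% of the genes and 47.4% of the codons.

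There were 40.5 and 72.0 reads on UCU per read on CCU in paf1Δ, 4.93 and 3.67 in rtf1Δ, and 4.02 and 3.67 in WT libraries. The UCU and CCU tRNAs are of the same length and read neighbouring codons, AGA and AGG. UCU over ACG was 9.28 and 22.6 in paf1Δ, 1.94 and 1.69 in rtf1Δ, and 1.77 and 1.63 in WT libraries. UCU over CCG was 48.2 and 35.9 in paf1Δ, 5.42 and 4.09 in rtf1Δ, and 2.83 and 3.79 in WT libraries. In all these ratios the paf1Δ libraries lay above the other 4, and the rtf1Δ libraries lay above WT only for UCU over CCG. With 2 libraries against 2 an exact permutation test cannot reach the threshold, so the ratios are given without a test.

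The ratio of the near-identical ACG sequences also separated the genotypes. TRNA-ARG-ACG-1-1 had 6.49 and 7.07 reads per read of TRNA-ARG-ACG-2-1 in paf1Δ, 3.39 and 4.26 in rtf1Δ, and 2.55 and 2.78 in WT libraries. No genotypes overlapped, and the difference in log2 ratio was 1.35 for paf1Δ minus WT, 0.51 for rtf1Δ minus WT and 0.83 for paf1Δ minus rtf1Δ. Since fragments of these sequences can be exchanged and the listed references were longer in paf1Δ, the part of read placement in this ratio was not tested. ACG over CCU was 4.36 and 3.18 in paf1Δ, 2.54 and 2.17 in rtf1Δ, and 2.27 and 2.25 in WT libraries. CCG over CCU, the ratio of the single-gene tRNAs, was 0.840 and 2.01 in paf1Δ, 0.910 and 0.896 in rtf1Δ, and 1.42 and 0.968 in WT libraries, and differed more between the paf1Δ replicates than between the mean log2 ratios of any genotypes.

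**Figure D4:**
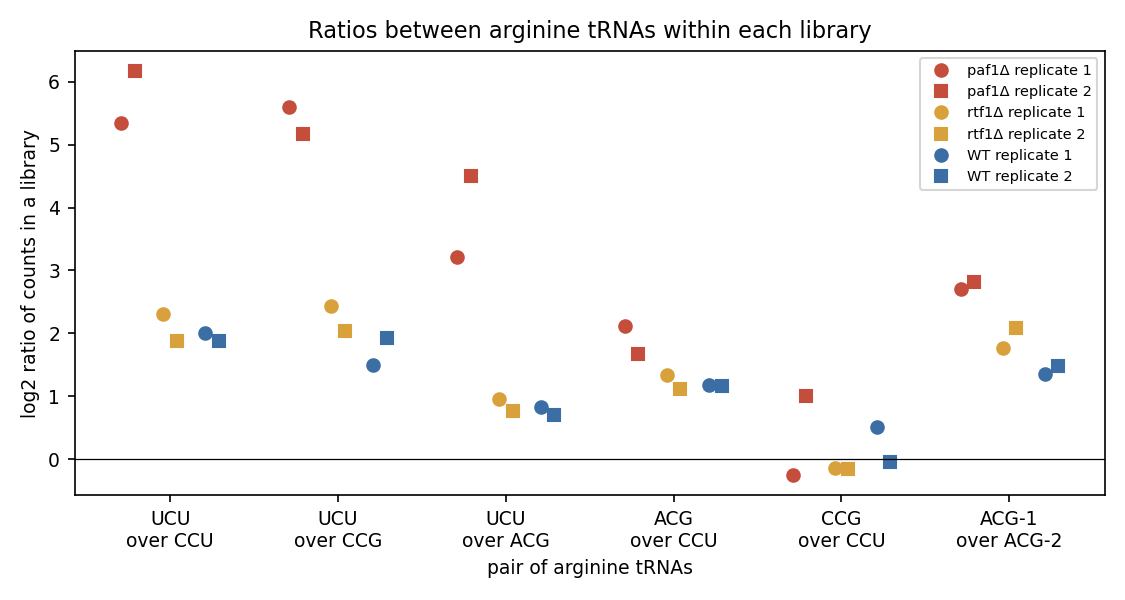
Log2 ratio of the counts of 2 arginine tRNAs within each library (circles, replicate 1, squares, replicate 2) for paf1Δ, rtf1Δ and WT. The ratios of UCU to CCU, CCG and ACG are higher in both paf1Δ libraries than in the other 4, ACG-1 over ACG-2 separates all genotypes, and CCG over CCU spreads most within paf1Δ.

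In the WT libraries the read shares of UCU and ACG lay closer to their codon shares in the genome than those of the single-gene types. Each codon was assigned to a single type here and was not weighted by expression. Of the 130145 arginine codons in 6008 nuclear coding sequences, 47.4% were AGA, 21.3% AGG and 4.15% CGG, and the CGU, CGC and CGA codons read by the ACG tRNA made up 27.2%. The UCU, ACG, CCU and CCG types had 57.9, 31.6, 5.26 and 5.26% of the arginine tRNA genes. The UCU and ACG shares of the arginine reads in WT were 46.3 ± 0.24% and 27.3 ± 1.8% (SD, n = 2), CCU had 12.1 ± 0.85% and CCG 14.3 ± 2.9% (SD, n = 2). Read counts of different tRNAs were not calibrated against each other, so these shares need not be shares of molecules.

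Divided by the number of genes of each type, UCU had 1.76 and 1.88% of the aligned reads per gene in paf1Δ, 0.141 and 0.0941% in rtf1Δ, and 0.107 and 0.0765% in WT libraries. ACG had 0.348 and 0.152% per gene in paf1Δ, 0.133 and 0.102% in rtf1Δ, and 0.111 and 0.0862% in WT libraries. In rtf1Δ and WT libraries the single CCU and CCG genes thus had more reads per gene than UCU or ACG, and in paf1Δ libraries UCU had more than any other type. The gene numbers are those of the R64 reference strain, and those of the strains used here were not examined.

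The tRNAs for other amino acids whose pattern over the 6 libraries was nearest to each arginine tRNA were found by the root mean square difference of log2 CPM (counts scaled to equal library totals), each centred on its own mean. For UCU they were TRNA-SER-AGA-2-1 (difference 0.57), TRNA-SER-AGA-1-1 (0.73) and TRNA-SER-TGA-1-1 (0.87), all tRNAs for serine. TRNA-SER-AGA-2-1 had 4.52 and 12.6% of the aligned reads in paf1Δ, 0.569 and 0.462% in rtf1Δ, and 0.941 and 0.468% in WT libraries. Its level thus rose in paf1Δ as that of UCU did but differed more between the paf1Δ replicates (log2 fold change over WT 3.93, SE 0.90, edgeR adjusted p = 0.0322). No arginine sequence was nearer to UCU than these, the nearest being TRNA-ARG-ACG-1-1 at 1.39.

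The other arginine tRNAs had nearer neighbours. CCU was nearest to TRNA-ASP-GTC-2-1 (0.12), TRNA-LEU-TAA-1-1 (0.19) and TRNA-LEU-CAA-1-8 (0.24), and among the arginine sequences to TRNA-ARG-ACG-2-1 (0.27). CCG was nearest to TRNA-LEU-TAG-1-2 (0.20), TRNA-LEU-TAG-1-1 (0.21) and TRNA-LEU-TAA-1-1 (0.32). TRNA-ARG-ACG-1-1 was nearest to TRNA-ASP-GTC-2-1 (0.38), TRNA-LEU-TAA-1-1 (0.38) and TRNA-TRP-CCA-1-1 (0.48), and TRNA-ARG-ACG-2-1 to 3 tRNAs for proline, TRNA-PRO-TGG-2-1 (0.25), TRNA-PRO-TGG-1-2 (0.27) and TRNA-PRO-TGG-1-9 (0.27). None of the nearest sequences of CCU, CCG or either ACG sequence passed the test in any of the 3 comparisons by edgeR.

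Leucine and serine are the other amino acids with as many codons as arginine, and lysine is read from neighbouring purine-rich codons. In paf1Δ over WT, 0 of 9 leucine sequences were called in either direction (median log2 fold change 0.12), 4 of 5 serine sequences were called higher (median 3.93), and 0 of 3 lysine sequences were called (median 0.76). In rtf1Δ over WT, edgeR called 0 of these in either direction, with medians of 0.52, 0.13 and -0.44. In paf1Δ over rtf1Δ, 1 leucine and 4 serine sequences were called higher and 0 lysine sequences were called, with medians of -0.26, 4.15 and 1.35.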

How the data were processed

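Raw read counts per tRNA sequence, and reads aligned to no tRNA, were deposited by the authors for each library, without normalization, with the listed length of each reference. On Galaxy the authors removed adapters and low-quality bases, aligned the reads to unique tRNA sequences and ran IdxStats. The labels name Bowtie and SAMtools. How reads that match several sequences were placed is not given in the sources used here.

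Genotypes and replicates were taken from the sample labels. The label rtf1Δ replicate 1 goes with the file named 2 and the reverse, and the labels were followed. File names place WT replicate 1 in another set than WT replicate 2 and both rtf1Δ libraries, and give no set for paf1Δ, so set and replicate cannot be told apart within WT.

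The 4 libraries of a comparison were fitted by themselves with edgeR 4.0.16 (R 4.3.3, TMM, quasi-likelihood test, two-sided, Benjamini-Hochberg threshold 0.05), over sequences with at least 10 counts in at least 2 libraries, and again on counts summed by amino acid. Standard errors were obtained as |log2 fold change| divided by √F. Alternatives were DESeq size factors, total counts, DESeq2 1.42.0, a joint fit of all 6 libraries, a replicate block, no filter, at least 100 counts in every library, sums by anticodon, TRNA-ARG-TCT-1-1 left out, and each library left out in turn, where a lone library is assumed to vary like the other group. The single-sequence fits were tested on simulated data, with 10 of the 70 sequences changed in each of 20 simulations. Of sequences changed by 4 on the log2 scale, 98% were recovered for paf1Δ over WT and 100% for the other comparisons, and of those changed by 2, 50.5% for paf1Δ over WT, 98% for rtf1Δ over WT and 82% for paf1Δ over rtf1Δ. Between 4.31 and 8.89% of these calls were false. One common spread was simulated, and neither shared reads nor a reference that differs by genotype. The share that 3 counts represent was 0.000578% or less in each library.

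All 5 arginine sequences are named. For each, the 3 nearest sequences for other amino acids (pseudocount 0.5) are named, and the leucine, serine and lysine sequences are counted. The members and lists were chosen with earlier results of these data known. Sequences, genes and codons are from R64 (RefSeq). The deposited lengths of the arginine sequences match the annotated genes in rtf1Δ and WT libraries.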

Additional observations from a re-analysis of the deposited data

Results flagged for a closer look

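The effects of both deletions on the UCU tRNA differed. TRNA-ARG-TCT-1-1 was at a log2 fold change of 4.43 (SE 0.77) in paf1Δ over WT and 0.66 (SE 0.36) in rtf1Δ over WT, and the direct test of paf1Δ over rtf1Δ gave 3.92 (SE 0.57, edgeR adjusted p = 0.0149). Both paf1Δ libraries were higher than both rtf1Δ libraries. The arginine total differed likewise, by 3.11 on the log2 scale (SE 0.51, edgeR adjusted p = 0.0117), with 22.3 and 22.4% of the aligned reads in paf1Δ and 2.96 and 2.18% in rtf1Δ libraries. The aligned share of the reads was 87.9 and 87.4% in these paf1Δ libraries and 5.64 and 6.08% in the rtf1Δ libraries, and the part of this difference in either result cannot be told apart from that of the genotype.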

How the results depend on the processing

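In paf1Δ over WT, 2 arginine sequences were called, against 3 with DESeq2, which added CCU, 1 with total counts, with at least 100 counts in every library or summed by anticodon, 0 of 4 with UCU left out, and 0 to 2 with 1 library left out. UCU was called under 10 of 12 alternatives (3.91 to 4.89 on the log2 scale). The arginine total was 3.78 with the replicate block (adjusted p = 0.0565) and 3.46 to 3.87 with 1 library left out, losing the call without paf1Δ replicate 1 (adjusted p = 0.052) or WT replicate 2 (adjusted p = 0.0611). In rtf1Δ over WT, 0 were called, and 0 to 2 with 1 library left out. In paf1Δ over rtf1Δ, 1 was called, against 2 with DESeq size factors, total counts, DESeq2, all 6 libraries or the replicate block, 0 of 4 with UCU left out, and 0 to 3 with 1 library left out, and the total was then 2.75 to 3.44, losing the call when either rtf1Δ library was left out (adjusted p = 0.134 and 0.154). CCG moved to 1.42 over WT and 1.35 over rtf1Δ without paf1Δ replicate 1. In rtf1Δ over WT, TRNA-ARG-ACG-2-1 turned to -0.12 with total counts and was -0.065 (without rtf1Δ replicate 1) to 0.41 with 1 library left out, and CCG turned to -0.24 with total counts and was -0.087 (without WT replicate 2) to 0.34. In paf1Δ over rtf1Δ, TRNA-ARG-ACG-2-1 was -0.14 without paf1Δ replicate 1, -0.019 without rtf1Δ replicate 2 and at most 0.51 with 1 library left out. The cause was not tested.

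Over all 70 sequences, 13 were called in paf1Δ over WT (46.2% higher), against 14 with DESeq size factors (64.3% higher) 28 with DESeq2 and 0 to 17 with 1 library left out. In rtf1Δ over WT 4 were called, against 1 with total counts, which moved the median to -0.37, 2 with DESeq2 and 0 to 23 with 1 library left out. In paf1Δ over rtf1Δ 18 were called, against 29 with DESeq size factors 35 with DESeq2 and 11 to 47 with 1 library left out. The labels give the genotypes the same replicate numbers. With 2 pairs the numbers were not taken as a pairing, since deviations of same-numbered libraries correlated at 0.10, 0.25 and 0.012 over the 70 sequences. The replicate block called 20, 0 and 26 of all sequences in the 3 comparisons.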

Other observations

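Aspartate tRNA genes follow 4 of the 11 UCU genes by 10 nt, and the files hold 2 aspartate sequences. This comparison was chosen after the values were seen. The aspartate sequences together had 7.52 and 4.19% of the aligned reads in paf1Δ, 12.3 and 13.5% in rtf1Δ, and 14.8 and 18.7% in WT libraries. By edgeR the aspartate total was at a log2 fold change of -1.18 (SE 0.44, adjusted p = 0.0681) in paf1Δ over WT, -0.085 (SE 0.33, adjusted p = 0.992) in rtf1Δ over WT and -1.26 (SE 0.33, adjusted p = 0.0314) in paf1Δ over rtf1Δ. The values of its sequences had opposite signs in paf1Δ over WT, where TRNA-ASP-GTC-1-1 was at -2.28 (edgeR adjusted p = 0.0579) and TRNA-ASP-GTC-2-1 at 0.67 (adjusted p = 0.294). In paf1Δ over rtf1Δ they were at -1.91 (edgeR adjusted p = 0.0234) and 0.36 (adjusted p = 0.256). There were 2.58 and 4.93 UCU reads per aspartate read in paf1Δ, 0.126 and 0.0767 in rtf1Δ, and 0.0797 and 0.0451 in WT libraries. The counts do not say which genes the reads of either tRNA came from.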
